A study of Mus musculus with 6 samples.

Results

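The IL-6 family of cytokines and receptors was followed through the cells of orthotopic mouse pancreatic tumours, as 9 genes of the 32285 in the count matrices. They were chosen by name as 4 ligands (Il6, Osm, Lif and Il11), 4 receptor chains (Il6ra, Il6st, Osmr and Lifr) and Socs3, a feedback inhibitor. All tumours grew in the pancreas of C57BL/6 mice aged 6 to 8 weeks and were taken 4 weeks after injection of KPC cells, pancreatic cancer cells taken from KPC mice. The injected cells held an empty vector (group OE-Vector) or a construct to overexpress mouse Mlkl (group OE-MLKL), whose product ruptures the plasma membrane in necroptosis. The hosts were not engineered, so that any added Mlkl belongs to the cancer cells alone. The labels name 6 samples, 3 per group, of which 4 were analysed here by single-cell RNA sequencing, namely OE-Vector 1 and OE-MLKL 1, 2 and 3. OE-Vector 2 and 3 were not analysed here.

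Cytokines of this family signal through Il6st (gp130), the chain that all these ligands use. Il6 and Il11 first bind a receptor of their own, Il6ra or Il11ra1, and then recruit Il6st, whereas Osm binds Il6st together with Osmr and Lif binds Il6st together with Lifr. Bound receptors activate Janus kinases and STAT3, and STAT3 induces Socs3, which blocks the receptor and so ends the signal. In pancreatic tumours, Il6 is known as a product of inflammatory fibroblasts and myeloid cells, Osm as a myeloid cytokine, and Lif and Il11 as products of cancer cells and stroma. The study was about necroptosis driven by Mlkl in metastasis. It reported that IL-6 protein, mainly from co-cultured macrophages, raised CD47 on cancer cells, by ELISA and antibody neutralisation. The counts here are of RNA in tumours, which is a different measure. The comparisons here concern where each ligand and receptor was transcribed and whether OE-MLKL tumours differed from OE-Vector.

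Cells were assigned to classes by marker genes that include no member, with thresholds set on the marker distributions. Cancer-like cells (Krt8, Krt18, Epcam and 11 other markers) numbered 2733, 7571, 7929 and 3567 in OE-Vector 1 and OE-MLKL 1, 2 and 3, in that order, which holds for all lists of 4 values below. Macrophage-like cells (C1qa, Csf1r, Mrc1 and others) numbered 2114, 2715, 2576 and 3103. Neutrophil-like cells (S100a8, Csf3r, Cxcr2 and others) numbered 7029, 5274, 8353 and 7304. T cell-like cells (Cd3d, Trac and others) numbered 1011, 540, 624 and 817. The stromal classes were small, with 63, 143, 108 and 117 fibroblast-like cells (Pdgfra, Col1a2, Dcn and others) and 37, 24, 47 and 35 endothelial-like cells (Cdh5, Cldn5, Egfl7 and others). Each class had at least 3 of its own markers among its 10 leading genes, and no class had more than 1 marker of another class there. The cells were chosen by these same markers, so this is no independent check of the classes. The cancer-like cells carried almost no Y-linked transcripts (3.75 to 10.3 CPM, UMIs scaled to a common library total of 1000000, summed over the Y-linked genes), while the fibroblast-like cells carried 142 to 239 CPM, beside 150 to 191 CPM in macrophage-like and 160 to 248 CPM in neutrophil-like cells of the host.

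Before the results, 3 facts about the libraries bear on all of them. The targeted gene was not raised in the libraries labelled OE-MLKL, since Mlkl (chromosome 8, 111311797 to 111338177, minus strand, GRCm38) measured 16.6 CPM in cancer-like cells of OE-Vector 1 and 8.50, 12.9 and 19.7 CPM in the libraries labelled OE-MLKL (log2 fold change -0.41 ± 0.39 SE, edgeR adjusted p = 0.99). Across genes, OE-MLKL 3 correlated most closely with OE-Vector 1 in 5 of 5 classes, and OE-MLKL 1 and OE-MLKL 2 correlated most closely with each other in 5 of 5. In neutrophil-like cells, for example, r across 7466 genes was 0.9541 between OE-MLKL 3 and OE-Vector 1 and 0.9315 between OE-MLKL 3 and OE-MLKL 2. Seen from OE-Vector 1, OE-MLKL 3 was the closest library in 4 of 5 classes. In cancer-like cells it was OE-MLKL 2 (r = 0.9556, against 0.9516 with OE-MLKL 3). In those cells depth per cell also set OE-Vector 1 and OE-MLKL 3 apart from OE-MLKL 1 and 2, with medians of 26803, 12592, 12450 and 21305 UMIs. The 3' counts may miss a construct without the native 3' end of Mlkl, so the level of Mlkl is a weak check of the labels. An exchange of labels was not tested, and every value of OE-MLKL over OE-Vector below compares libraries as labelled. Calls of members between the groups are also given without OE-MLKL 3, and the 1 OE-Vector library cannot be told apart from its tumour. Between 73 and 134 cell barcodes were shared by each pair of libraries. No member was called between the groups with or without the 1215 cells that had such a barcode. With no call to lose, this says little about the effect of those cells.

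Droplets that hold no cell still carry RNA released from broken cells. Barcodes with at most 100 UMIs, here called free RNA, were summed per library as a measure of it, and their level stands beside each member. Levels of different genes are not compared with each other, since 3' counts do not give them on 1 scale.

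**Figure D1:**
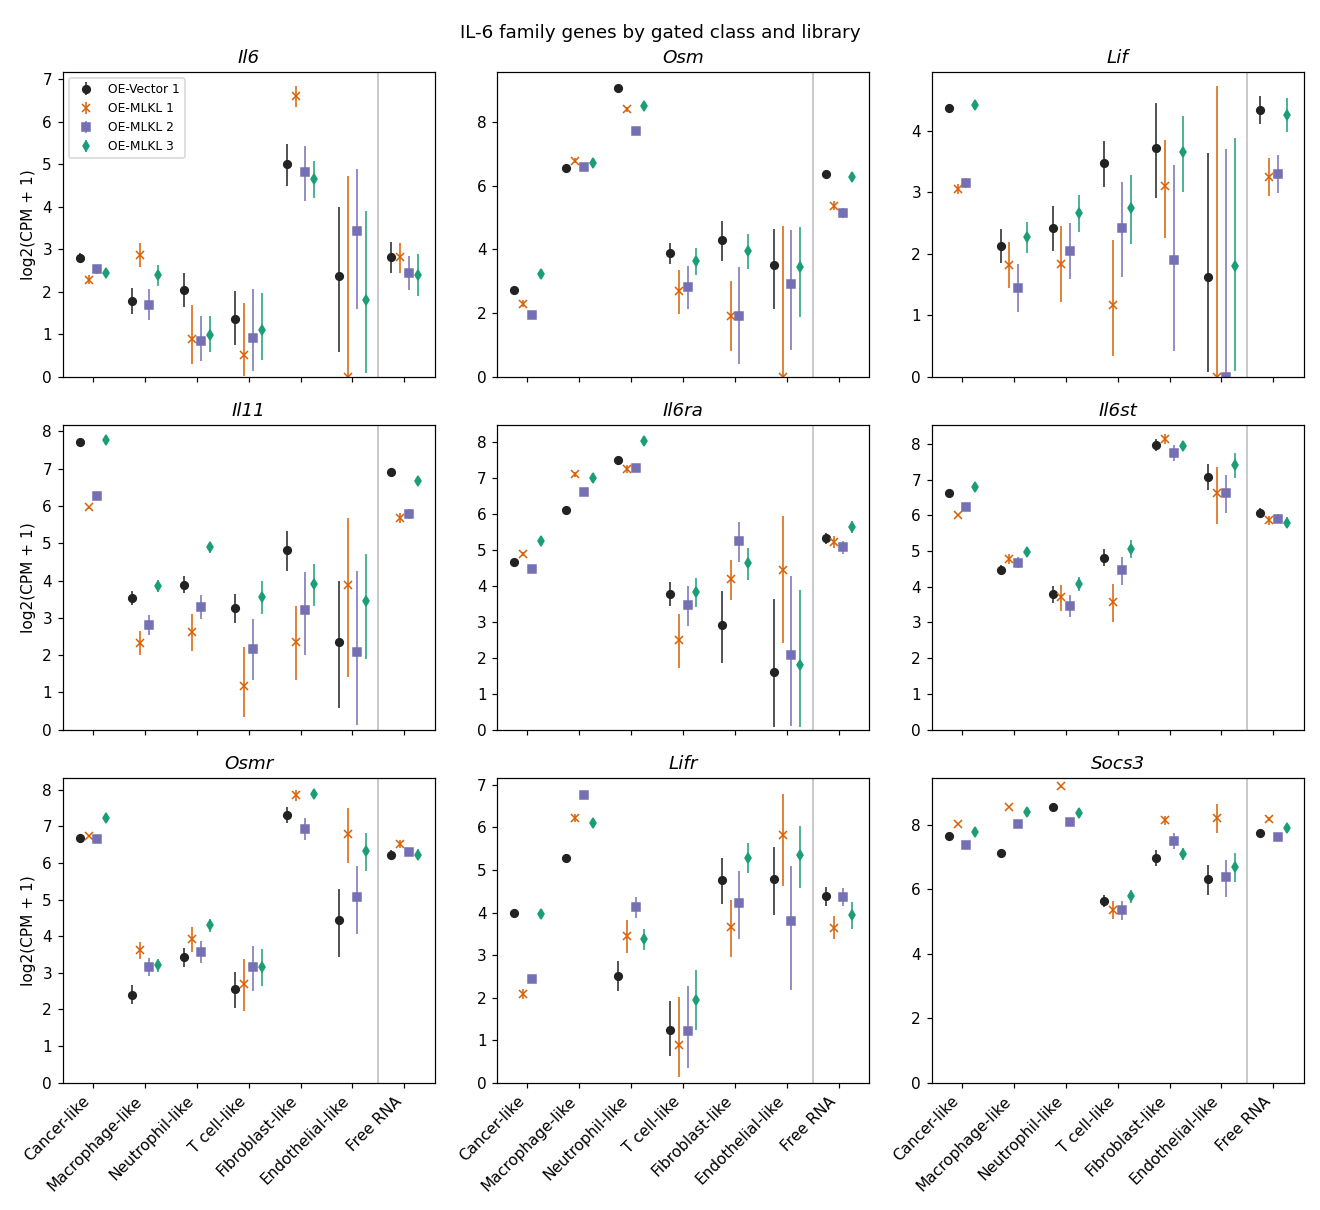
Level of each of the 9 genes as log2(CPM + 1), by gated class and, right of the grey line, in free RNA, with each of the 4 libraries as a symbol and exact 95% Poisson intervals, which cover counting error only. Osm stands highest in neutrophil-like cells, Il11 and Osmr stand far higher in cancer-like than in immune classes, and in cancer-like cells the Il11, Lif and Lifr points of OE-Vector 1 and OE-MLKL 3 lie together above those of OE-MLKL 1 and 2.

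Il6, the founding ligand of the family, was sparse in every class and highest in fibroblast-like cells. It lies on chromosome 5 (30013114 to 30019981, plus strand). Fibroblast-like cells held 31.0, 95.5, 27.3 and 24.3 CPM, from 33, 139, 20 and 42 UMIs, so that OE-MLKL 1 stood far above the other libraries, which lay close together. Cancer-like cells held 5.97, 3.88, 4.75 and 4.40 CPM and macrophage-like cells 2.41, 6.33, 2.23 and 4.22 CPM, levels that overlap each other and those of free RNA (6.01, 6.00, 4.45 and 4.27 CPM). Neutrophil-like and T cell-like cells were lower, at 0.786 to 3.12 CPM and 0.418 to 1.55 CPM. The small monocyte-like class gave 34.0, 23.8, 5.01 and 0 CPM on 11, 2, 1 and 0 UMIs, too few to place it. Fibroblast-like cells exceeded cancer-like cells by 3.22 ± 0.37 on the log2 scale (edgeR adjusted p = 7.4e-09). Macrophage-like and cancer-like cells differed by -0.17 ± 0.34, which did not pass the test (edgeR adjusted p = 0.68).

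Cancer-like cells were far more numerous and deeper than fibroblast-like cells, and held most UMIs of all genes in gated cells. Most Il6 UMIs of gated cells lay in them as well, namely 79.1%, 66.0%, 89.6% and 70.0%. Fibroblast-like cells held 5.16%, 20.9%, 3.26% and 7.97% of them, although they held 0.870% to 1.37% of all gated UMIs in 3 libraries and 0.52% in OE-MLKL 2. Macrophage-like cells held 7.03%, 12.0%, 4.89% and 18.0%. At least 1 UMI of Il6 was seen in 28.6%, 32.2%, 12.0% and 19.7% of fibroblast-like cells and in only 0.932% to 1.84% of macrophage-like cells. The 1% of cancer-like cells richest in Il6 held 25.3% to 37.6% of its UMIs. For Osm in cancer-like cells this share was 20.4% to 40.4%. At such low counts the share alone does not show that a gene is uneven from cell to cell.

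**Figure D2:**
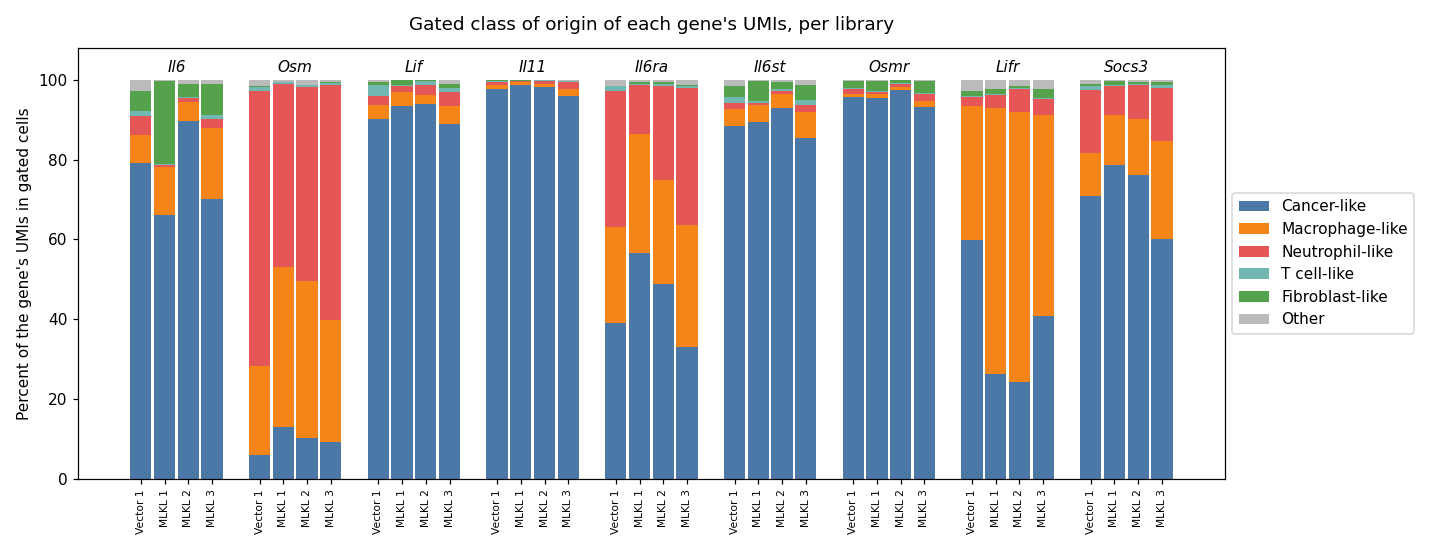
Percent of each gene's UMIs in gated cells that fell in each class, with 1 bar per library and all smaller classes joined as Other. Cancer-like cells held 96.0% or more of Il11 UMIs in every library, whereas Osm was divided mainly between neutrophil-like and macrophage-like cells.

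Osm (oncostatin M; chromosome 11, 4236420 to 4241026, plus strand) was the myeloid ligand. Neutrophil-like cells held 545, 339, 209 and 364 CPM, with OE-Vector 1 highest and OE-MLKL 2 lowest. Macrophage-like cells held 93.0, 110, 96.4 and 103 CPM, nearly the same in all 4 libraries. Cancer-like cells (5.56, 3.93, 2.88 and 8.37 CPM) and T cell-like cells (13.8, 5.44, 6.11 and 11.4 CPM) lay below free RNA, which held 81.4, 40.7, 34.4 and 76.9 CPM. Neutrophil-like cells exceeded macrophage-like cells by 1.91 ± 0.22 on the log2 scale (edgeR adjusted p = 1.6e-09) and macrophage-like cells exceeded cancer-like cells by 4.64 ± 0.24 (edgeR adjusted p = 1.3e-18). The small monocyte-like class, of 17 to 79 cells, held 160 to 259 CPM. By origin, neutrophil-like cells held 69.1%, 45.9%, 48.6% and 58.9% of the gated Osm UMIs and macrophage-like cells 22.2%, 40.3%, 39.5% and 30.5%.

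At least 1 Osm UMI was found in 31.8%, 18.7%, 12.7% and 29.8% of neutrophil-like cells, whose median depths were only 1215, 750, 789 and 1412 UMIs. Macrophage-like cells gave 41.4%, 29.6%, 30.2% and 39.8% at medians of 8459, 4162, 4801.5 and 7028 UMIs, and T cell-like cells, a class not known as a main source, gave 5.44%, 1.85%, 2.24% and 4.16%. At a fixed 1000 UMIs per cell the order of the myeloid classes turned round, with 27.9%, 21.9%, 14.0% and 22.5% of neutrophil-like cells against 8.87%, 9.80%, 8.60% and 9.35% of macrophage-like cells. Only the deeper neutrophil-like cells could enter at that depth.

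Lif (leukaemia inhibitory factor) lies 16530 bases from Osm on chromosome 11 (4257557 to 4272514, plus strand), yet was highest in other cells. Cancer-like cells held 19.7, 7.31, 7.90 and 20.4 CPM, with OE-Vector 1 and OE-MLKL 3 alike and well above OE-MLKL 1 and 2. Free RNA held nearly the same levels, 19.3, 8.52, 8.89 and 18.2 CPM. Fibroblast-like cells, second in order, held 12.2, 7.56, 2.73 and 11.6 CPM from 13, 11, 2 and 20 UMIs, below cancer-like cells in 3 of 4 libraries, and the difference of -0.49 ± 0.29 on the log2 scale did not pass the test (edgeR adjusted p = 0.17). Macrophage-like cells held 1.71 to 3.82 CPM and neutrophil-like cells 2.57 to 5.34 CPM. In T cell-like cells Lif measured 10.1, 1.26, 4.36 and 5.69 CPM from 52, 3, 10 and 20 UMIs. Cancer-like cells, which held most gated UMIs of all genes, held 89.1% to 93.8% of those of Lif. Macrophage-like cells lay below cancer-like cells by -1.97 ± 0.23 on the log2 scale (edgeR adjusted p = 2.4e-09).

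Il11, a cytokine best known for fibrosis and for STAT3 activation in epithelial tumours, was the most cancer-restricted ligand by its share of UMIs. It lies on chromosome 7 (4772373 to 4782859, minus strand). Cancer-like cells held 208, 61.5, 76.6 and 217 CPM, so that OE-Vector 1 and OE-MLKL 3 again lay together, above OE-MLKL 1 and 2. Macrophage-like cells held 10.5, 4.04, 6.03 and 13.5 CPM, neutrophil-like cells 13.8, 5.14, 8.78 and 28.7 CPM and T cell-like cells 8.54, 1.26, 3.49 and 10.8 CPM. These low levels stood in nearly the same order over the libraries as the level of free RNA (118, 50.1, 54.2 and 101 CPM), and the 14 cancer markers summed to 276 to 401 CPM in neutrophil-like cells against 2311 to 3324 CPM in cancer-like cells. The part of free RNA or of cancer cell RNA in them was not tested. Cancer-like cells exceeded macrophage-like cells, which lay at -3.77 ± 0.22 on the log2 scale against them (edgeR adjusted p = 1.2e-17), and they held 97.7%, 98.7%, 98.2% and 96.0% of the gated UMIs. At least 1 Il11 UMI was found in 73.4%, 32.7%, 40.0% and 63.0% of cancer-like cells. At 1000 UMIs per cell these shares were 14.7%, 4.50%, 6.05% and 13.9%, in the same order over the libraries, and 0.121% to 1.31% in T cell-like cells.

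In cancer-like cells the ligands also coincided more often than the product of their separate shares. Il11 and Lif were seen together in 23.7%, 3.99%, 5.35% and 17.9% of cancer-like cells, where the product of the shares would be 20.6%, 2.55%, 3.35% and 13.8%. Cells of greater depth show both genes more often, and depth was not held fixed here.

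Stretches upstream of the start sites are shown for the members with a match, before the start, to the AP-1 motif TGANTCA or the STAT motif TTCNNNGAA, searched on both strands, since Il11 and Lif moved together over the libraries and Socs3 is a STAT3 target. Each motif reads the same on both strands, and the matches do not overlap each other in these stretches. RefSeq windows (build GRCm38.p6, 250 bases before to 50 after a start) were at hand for 8 of the 9 members, 10 windows in all. The AP-1 motif was in a window of 4 members (Il6, Lif, Il11 and Osmr) and the STAT motif in that of 1 (Socs3). Of all 32841 windows, 7.81% held the AP-1 motif and 8.30% the STAT motif. The 250 bases before the start are printed 5′ to 3′ on the strand of the gene, with the motif in capitals. The Il6 stretch is chr5:30012864-30013113 (plus strand), that of Lif chr11:4257318-4257567 (plus strand), that of Il11 chr7:4778142-4778391 (minus strand, the second of its windows) and that of Socs3 chr11:117969367-117969616 (minus strand). A match is only a run of letters and no measure of binding.
Il6: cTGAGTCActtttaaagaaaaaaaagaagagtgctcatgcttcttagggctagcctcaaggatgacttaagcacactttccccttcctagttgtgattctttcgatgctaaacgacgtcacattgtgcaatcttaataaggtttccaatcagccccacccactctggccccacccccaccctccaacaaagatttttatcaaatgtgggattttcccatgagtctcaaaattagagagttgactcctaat
Lif: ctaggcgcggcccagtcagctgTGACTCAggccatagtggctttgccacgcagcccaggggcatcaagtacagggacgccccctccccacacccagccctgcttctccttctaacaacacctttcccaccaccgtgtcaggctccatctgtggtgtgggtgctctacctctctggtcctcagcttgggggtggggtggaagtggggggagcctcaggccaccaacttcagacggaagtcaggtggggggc
Il11: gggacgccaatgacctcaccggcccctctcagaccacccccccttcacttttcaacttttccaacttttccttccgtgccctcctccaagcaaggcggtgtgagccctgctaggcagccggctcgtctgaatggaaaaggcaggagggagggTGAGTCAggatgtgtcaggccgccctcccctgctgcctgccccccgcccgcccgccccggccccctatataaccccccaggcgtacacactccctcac
Socs3: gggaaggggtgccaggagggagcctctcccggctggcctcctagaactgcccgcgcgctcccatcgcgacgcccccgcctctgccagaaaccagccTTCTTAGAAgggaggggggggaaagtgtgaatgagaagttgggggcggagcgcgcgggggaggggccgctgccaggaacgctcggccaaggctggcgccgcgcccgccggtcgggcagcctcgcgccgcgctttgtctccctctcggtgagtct

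Il6ra, the receptor chain that binds Il6, was highest in myeloid cells. Its gene is on chromosome 3 (89864059 to 89913196, minus strand), with Gm42809 on the other strand. Neutrophil-like cells held 179, 150, 153 and 258 CPM, macrophage-like cells 67.4, 135, 96.7 and 126 CPM, and cancer-like cells 24.1, 28.4, 21.1 and 36.7 CPM, and these 3 ranges do not overlap. T cell-like cells held 4.60 to 13.1 CPM, below free RNA at 32.4 to 48.5 CPM. Cancer-like cells also had a lower mean than free RNA, at 27.6 ± 6.79 against 38.9 ± 6.88 CPM (SD, n = 4). So did B cell-like (23.5 CPM) and fibroblast-like cells (21.1 CPM), and the part of free RNA in these levels was not tested. Neutrophil-like cells exceeded macrophage-like cells by 0.99 ± 0.22 on the log2 scale (edgeR adjusted p = 0.00024) and cancer-like cells by 3.16 ± 0.24 (edgeR adjusted p = 2.9e-14). Dendritic cell-like cells lay between macrophage-like and cancer-like cells in 4 of 4 libraries, with a mean of 44.1 ± 13.4 CPM (SD, n = 4). Cancer-like, B cell-like and fibroblast-like cells, which follow in that order, did not differ beyond their spread.

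Il6st, the shared signalling chain (chromosome 13, 112464070 to 112510086, plus strand), was highest in stroma and then in cancer-like cells. Fibroblast-like cells held 249, 278, 213 and 243 CPM, endothelial-like cells 134, 96.6, 97.7 and 169 CPM, and cancer-like cells 97.4, 63.7, 73.6 and 109 CPM. This order held in 4 of 4 libraries. The larger immune classes were lower, at 21.3 to 30.6 CPM in macrophage-like cells, 10.9 to 32.4 CPM in T cell-like cells and 10.1 to 15.8 CPM in neutrophil-like cells, all below free RNA at 54.6 to 66.1 CPM. Fibroblast-like cells exceeded cancer-like cells by 1.67 ± 0.17 (edgeR adjusted p = 1.7e-10), and macrophage-like cells lay at -1.49 ± 0.17 (edgeR adjusted p = 7.2e-10) and neutrophil-like cells at -2.35 ± 0.18 against cancer-like cells (edgeR adjusted p = 4.1e-14). The difference of endothelial-like over cancer-like cells, 0.48 ± 0.20, missed the threshold (edgeR adjusted p = 0.051).

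Osmr, the partner chain for Osm (chromosome 15, 6813577 to 6874969, minus strand), was carried by fibroblast-like, cancer-like and endothelial-like cells. Fibroblast-like cells held 157, 230, 121 and 234 CPM and cancer-like cells 101, 105, 99.5 and 148 CPM, the first above the second in 4 of 4 libraries. Endothelial-like cells varied from 20.6 to 110 CPM on 10 to 32 UMIs. Macrophage-like cells held 4.28, 11.2, 7.97 and 8.22 CPM, neutrophil-like cells 9.77 to 18.8 CPM and T cell-like cells 4.85 to 7.97 CPM, against 73.9 to 91.0 CPM in free RNA. Fibroblast-like cells exceeded cancer-like cells by 0.79 ± 0.18 on the log2 scale (edgeR adjusted p = 0.00041), while macrophage-like cells lay at -3.67 ± 0.20 against cancer-like cells (edgeR adjusted p = 2.7e-18). Ligand and receptor were highest in different classes, Osm in neutrophil-like and macrophage-like cells and Osmr in fibroblast-like and cancer-like cells. Il6st and Osmr were both seen in 76.7%, 41.5%, 43.8% and 76.1% of cancer-like cells, at the depths given above.

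Lifr, the partner chain for Lif (chromosome 15, 7090614 to 7197489, plus strand), was highest in macrophage-like cells. They held 37.9, 73.9, 107 and 68.0 CPM, so that all 3 OE-MLKL libraries lay above OE-Vector 1. Cancer-like cells held 14.8, 3.22, 4.43 and 14.7 CPM, in the other order, with OE-Vector 1 and OE-MLKL 3 alike. Neutrophil-like cells held 4.73, 9.85, 16.4 and 9.31 CPM and T cell-like cells 0.837 to 2.85 CPM, while free RNA held 11.5 to 19.9 CPM. Macrophage-like cells exceeded cancer-like cells by 3.19 ± 0.38 on the log2 scale (edgeR adjusted p = 2.9e-09) and neutrophil-like cells lay at -2.72 ± 0.39 against macrophage-like cells (edgeR adjusted p = 2.0e-07). The macrophage-like share of the gated Lifr UMIs was 33.7%, 66.8%, 67.7% and 50.6% and the cancer-like share 59.8%, 26.1%, 24.2% and 40.7%. Dendritic cell-like and B cell-like cells followed the macrophage-like cells at 46.4 ± 39.9 and 37.9 ± 23.5 CPM (SD, n = 4), not apart from them beyond their spread.

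Socs3 (chromosome 11, 117966079 to 117970047, minus strand), the inhibitor that STAT3 induces, was detected in all classes. Neutrophil-like cells held 374, 582, 273 and 328 CPM, macrophage-like cells 138, 374, 259 and 332 CPM, cancer-like cells 198, 261, 164 and 218 CPM and fibroblast-like cells 125, 280, 181 and 137 CPM. The ranges overlapped except those of neutrophil-like and cancer-like cells. T cell-like cells were lowest among the main classes, at 48.5, 40.2, 40.1 and 53.8 CPM, below free RNA at 194 to 290 CPM. OE-MLKL 1 was the highest library in neutrophil-like, macrophage-like, cancer-like and fibroblast-like cells. On the log2 scale neutrophil-like cells exceeded cancer-like cells by 1.26 ± 0.20 (edgeR adjusted p = 1.0e-06), macrophage-like cells exceeded them by 0.59 ± 0.20 (edgeR adjusted p = 0.011) and T cell-like cells lay at -2.10 ± 0.22 against them (edgeR adjusted p = 1.3e-10). The call for macrophage-like over cancer-like cells was lost without OE-MLKL 2 (edgeR adjusted p = 0.13) or OE-MLKL 3 (0.12), with library size alone (0.12) and with no library block (0.11).

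Counted over the family, differences between the classes were common, as they were among all genes. Of the 9 members, 8 differed between macrophage-like and cancer-like cells (64.8% of the 13515 genes tested), 8 between neutrophil-like and cancer-like cells (77.2% of genes) and 9 between T cell-like and cancer-like cells (61.5%). Among the immune classes, 9 differed between neutrophil-like and macrophage-like cells (65.6%, but 5 with no library block and 6 without OE-MLKL 3), 7 between T cell-like and macrophage-like cells (57.1%) and 7 between T cell-like and neutrophil-like cells (68.5%). In the stroma, 6 differed between fibroblast-like and cancer-like cells (45.3%) and 6 between endothelial-like and cancer-like cells (39.0%). With so many genes called, the size and direction of each difference say more than its call.

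The genes whose levels followed each member most closely over 37 sums of class and library were found among about 9340 genes with a mean of at least 10 CPM. The sums share libraries and cell types, and r is given as a description. For Osm they included Klra2 (r = 0.92) and Gm5150 (0.92) and for Il6 Cfb (0.83) and Serpinb2 (0.79). They were Slit2 (0.77), Ak1 (0.76) and Pcyox1l (0.75) for Lif and Nr2f1 (0.91), Pard3 (0.82) and Cldn2 (0.81) for Il11. For the receptors they were Nlrp3 (0.86), Spi1 (0.86) and Alox5ap (0.83) for Il6ra, Id3 (0.91), Cnn3 (0.90) and Fstl1 (0.85) for Il6st, Cald1 (0.93), P3h4 (0.91) and Bgn (0.90) for Osmr, and Lmo2 (0.77), Tifa (0.75) and Scpep1 (0.72) for Lifr. For Socs3 they were Ier3 (0.90), Cebpd (0.87) and Bri3 (0.87).

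Between OE-MLKL and OE-Vector, none of the members passed the test in any class when the 3 OE-MLKL libraries were compared with the 1 OE-Vector library. In cancer-like cells edgeR called 0 of 9 members, against 0.00572% of 17490 genes, in macrophage-like cells 0 of 9, against 0.0287% of 13917, and in neutrophil-like cells 0 of 9, against 0% of 13212. In T cell-like cells it called 0 of the 7 members tested, against 0.00869% of 11509 genes, in fibroblast-like cells 0 of 9, against 0.00924% of 10817, and in endothelial-like cells 0 of the 4 tested, against 0.158% of 6964. DESeq2 and limma-voom also called 0 members in each class, although DESeq2 called 101 genes in cancer-like, 76 in macrophage-like and 90 in neutrophil-like cells. At an unadjusted p under 0.05 edgeR gave 0, 3, 2, 1, 2 and 1 members in these 6 classes in turn, beside 4.64%, 5.99%, 8.35%, 4.32%, 4.22% and 5.5% of all genes tested. The spread came from the OE-MLKL libraries alone, and an exact permutation test of 1 against 3 libraries cannot give a p below 0.25. Fewer transcripts per cell and fewer transcribing cells within a class cannot be told apart in these sums.

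In macrophage-like cells the 3 members with an unadjusted p under 0.05 were all higher in the OE-MLKL libraries, each in 3 of 3. Socs3 stood at 138 CPM in OE-Vector 1 and at 322 ± 58.0 CPM in OE-MLKL (SD, n = 3), a log2 fold change of 1.11 ± 0.36 (edgeR adjusted p = 0.79). Lifr differed by 1.02 ± 0.37 (37.9 against 82.9 ± 21.0 CPM, edgeR adjusted p = 0.82). Osmr differed by 0.98 ± 0.40, at the low levels of 4.28 against 9.14 ± 1.82 CPM (edgeR adjusted p = 0.83). These lie below free RNA. In macrophage-like cells the 12 fibroblast markers summed to 39.1, 71.8, 48.8 and 67.2 CPM and the 14 cancer markers to 229, 177, 224 and 292 CPM. The part of either source in the Osmr value was not tested. Il6ra stood at 67.4 against 119 ± 20.2 CPM, also above OE-Vector 1 in 3 of 3 libraries (0.71 ± 0.33, edgeR adjusted p = 0.84). Il6 itself, at 2.41 against 4.26 ± 2.05 CPM, gave 0.71 ± 0.66 (edgeR adjusted p = 0.90) and was above OE-Vector 1 in 2 of 3 libraries. The median log2 fold change was 0.71 over the 9 members and 0.04 over all genes tested, and without OE-MLKL 1 that of the members was 0.28. Without OE-MLKL 3 the members' median was 0.72, with 0 of 9 called by edgeR beside 1.35% of all genes. Socs3 then gave 1.14 ± 0.35 and Lifr 1.18 ± 0.30 (edgeR adjusted p = 0.17 and 0.11).

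In cancer-like cells Il11, Lif and Lifr were spread widely among the OE-MLKL libraries. Il11 differed by -0.99 ± 0.57 on the log2 scale (208 CPM in OE-Vector 1 against 118 ± 85.9, edgeR adjusted p = 0.99), Lif by -0.90 ± 0.49 and Lifr by -1.18 ± 0.68 (both edgeR adjusted p = 0.99). Without OE-MLKL 3, edgeR called all 3 lower, Il11 at -1.60 ± 0.20 (adjusted p = 0.016), Lif at -1.38 ± 0.24 (adjusted p = 0.035) and Lifr at -1.96 ± 0.30 (adjusted p = 0.028), which makes 3 of 9 members against 2.75% of 16984 genes. These calls are no evidence of a difference between the groups. They rest on leaving out OE-MLKL 3, which held 217 CPM of Il11 beside 208 in OE-Vector 1. What remains is 1 library against 2 that were closest to each other (r = 0.9775 across genes). The receptors Osmr (0.11 ± 0.29), Il6ra (0.13 ± 0.31) and Il6st (-0.37 ± 0.30) and the inhibitor Socs3 (0.01 ± 0.38) did not pass the test with or without OE-MLKL 3. Il6 gave -0.56 ± 0.39 (edgeR adjusted p = 0.99).

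**Figure D3:**
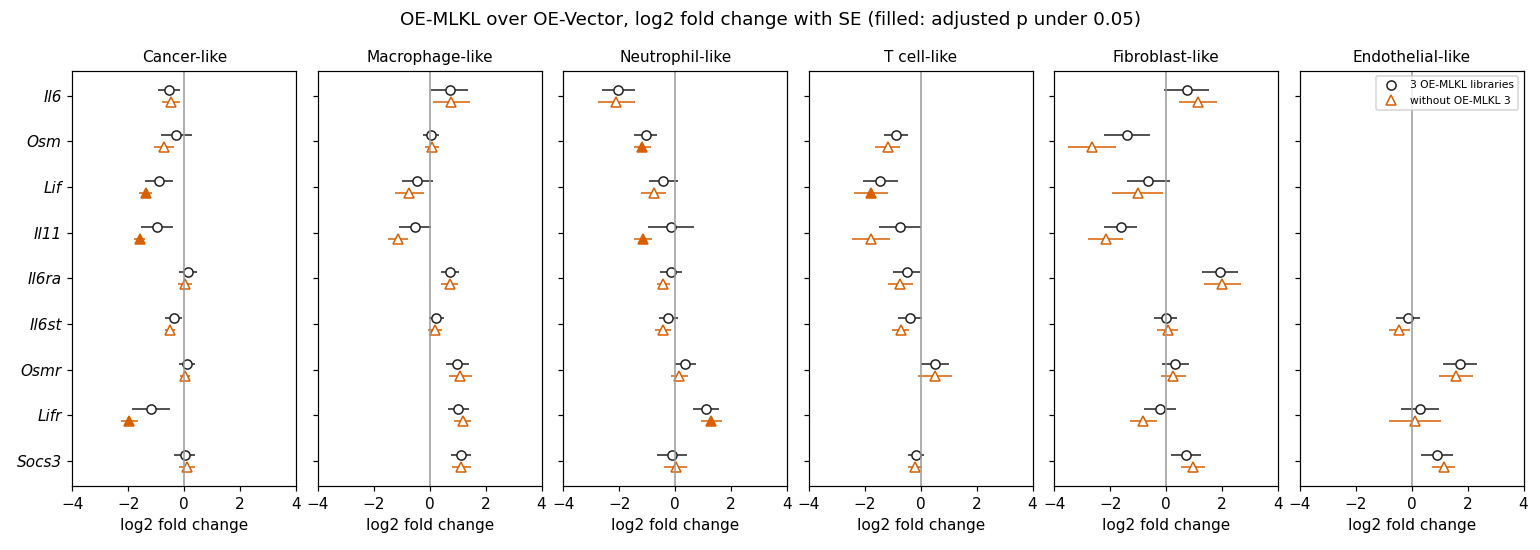
Difference between the groups, as OE-MLKL over OE-Vector on the log2 scale with its SE (edgeR), for each gene tested in each class, as circles with all 3 OE-MLKL libraries and as triangles without OE-MLKL 3, filled where the adjusted p is under 0.05. No circle is filled, and the 7 filled triangles are Lif, Il11 and Lifr in cancer-like cells, Osm, Il11 and Lifr in neutrophil-like cells and Lif in T cell-like cells.

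In neutrophil-like cells Osm was lower in each OE-MLKL library, with 304 ± 83.3 CPM (SD, n = 3) against 545 CPM, a log2 fold change of -1.06 ± 0.41 (edgeR adjusted p = 0.59). Without OE-MLKL 3 it was called, at -1.17 ± 0.31 (edgeR adjusted p = 0.031), with Il11 at -1.15 ± 0.33 (edgeR adjusted p = 0.041) and Lifr at 1.29 ± 0.37 (edgeR adjusted p = 0.039). This was 3 of 9 members, beside 14.4% of 12622 genes called, or 1820 genes against 0 with all libraries, and for the same reason it is no evidence of a difference between the groups. That reason is that the calls rest on 1 library against 2 that were closest to each other (r = 0.9735 across genes). Unlike Il11 in cancer-like cells, OE-MLKL 3 did not match OE-Vector 1 in Osm (364 against 545 CPM) or Lifr (9.31 against 4.73 CPM). The Osm level of free RNA was lower in OE-MLKL 1 and 2 as well, and its part in the Osm difference was not tested. Il6 gave -2.04 ± 0.59 (edgeR adjusted p = 0.56), on 31 UMIs in OE-Vector 1, beside 4, 6 and 12 in the others, and 19 of the 31 came from 1 cell.

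In T cell-like cells Il6 and Lifr were too sparse to test. Lif gave -1.44 ± 0.61 (edgeR adjusted p = 1.0), or -1.78 ± 0.61 without OE-MLKL 3 (edgeR adjusted p = 0.041), where 1 of 7 members was called beside 8.69% of 10753 genes, with the same limit. In fibroblast-like cells Il6ra gave 1.91 ± 0.64 and Il11 -1.63 ± 0.60 (both edgeR adjusted p = 1.0), on 7 to 41 and 6 to 29 UMIs per library. Of the 29 Il11 UMIs in fibroblast-like cells of OE-Vector 1, 15 came from 1 cell. In fibroblast-like cells the 11 macrophage markers summed to 1584, 1862, 1962 and 1649 CPM. The 12 neutrophil markers summed to 562, 636, 723 and 861 CPM there, and the part of either in the Il6ra value was not tested. Fibroblast Il6 gave 0.73 ± 0.81 (edgeR adjusted p = 1.0) and turned to -0.33 without OE-MLKL 1. In endothelial-like cells, where 4 members were tested, Osmr gave 1.73 ± 0.62 (edgeR adjusted p = 0.54). The 12 fibroblast markers there summed to 37.1, 110, 104 and 241 CPM, and their part in it was not tested. Il6st, Lifr and Socs3 gave -0.13 ± 0.43, 0.29 ± 0.67 and 0.90 ± 0.57. Without OE-MLKL 3, edgeR called 0 of 9 members in fibroblast-like cells, beside 0.0298% of genes, and 0 of 4 in endothelial-like cells, beside 2.17%.

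Other genes of the pathway were taken from 3 lists. Of the 11 further family genes, 9 were tested in cancer-like cells, 8 in macrophage-like, 7 in neutrophil-like, 5 in T cell-like, 4 in fibroblast-like and 0 in endothelial-like cells, and none was called higher or lower. Il11ra1, the receptor for Il11, whose counts are uncertain because near-identical copies of it exist in the mouse genome, was highest in fibroblast-like cells, at 116 ± 36.0 CPM (SD, n = 4) against 12.7 ± 1.46 in cancer-like cells. Cntfr, which binds ciliary neurotrophic factor, was at 10.4 ± 4.07 CPM in fibroblast-like cells. Clcf1, a ligand that acts through that receptor, was highest in cancer-like cells (56.3 ± 12.6 CPM). Between the groups Clcf1 gave 0.26 ± 0.28 in cancer-like cells. In myeloid cells Il27 gave -0.60 ± 0.58 in macrophage-like and -1.44 ± 1.17 in neutrophil-like cells, and Clcf1 0.47 ± 0.35 and 0.26 ± 0.31.

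Of 16 signalling genes, 16 were tested in cancer-like, macrophage-like, neutrophil-like and fibroblast-like cells, 15 in T cell-like and 13 in endothelial-like cells, with none called. Values of Stat3, the main transcription factor of the pathway, are given only for classes where it was among the 2 largest of this list. It gave 0.45 ± 0.31 in cancer-like, 0.50 ± 0.30 in macrophage-like, 0.46 ± 0.40 in T cell-like and 0.50 ± 0.43 in fibroblast-like cells. None of these passed the test (edgeR adjusted p of 0.86 or more). In neutrophil-like cells Stat3 was not among the 2 largest, the lower of which was Stat5b at 0.14 ± 0.30. In cancer-like cells Stat3 measured 143, 214, 199 and 217 CPM, higher in 3 of 3 OE-MLKL libraries. Cish and Socs2, inhibitors of cytokine receptors that mainly follow STAT5, gave the lowest values in cancer-like cells (-2.20 ± 0.61 and -1.35 ± 0.47, edgeR adjusted p = 0.95 and 0.99). Cish lay below OE-Vector 1 in 3 of 3 libraries there, at 39.1 CPM against 3.52, 8.21 and 17.0. Adam17, which sheds the Il6 receptor, gave -1.34 ± 0.39 in neutrophil-like cells (edgeR adjusted p = 0.56).

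Of 18 genes known to be induced by STAT3, 18 were tested in cancer-like, macrophage-like, neutrophil-like and fibroblast-like cells, 17 in T cell-like and 15 in endothelial-like cells, and 1 was called, as lower, in endothelial-like cells. It was Saa3, an acute-phase protein, at 161 CPM in OE-Vector 1, beside 27.6, 13.02 and 22.3 CPM in the 3 OE-MLKL libraries (-3.01 ± 0.46, edgeR adjusted p = 0.0013). DESeq2 (adjusted p = 0.32) and limma-voom (adjusted p = 0.14) did not call it, nor did edgeR over genes with a mean of at least 20 UMIs (adjusted p = 0.055), and the class holds 24 to 47 cells. Fibroblast-like cells held 1852 to 4782 CPM of Saa3. The fibroblast markers in endothelial-like cells were again higher in OE-MLKL, the opposite direction to Saa3, and their part in the Saa3 difference was not tested. The median log2 fold change of the tested genes of this list was 0.25 in cancer-like, 0.29 in macrophage-like, -0.22 in neutrophil-like, -0.11 in T cell-like, 0.44 in fibroblast-like and 0.46 in endothelial-like cells, beside 0.02 to 0.06 over all genes.

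Hp and Lrg1, acute-phase genes, had the largest values of this list in macrophage-like cells (1.88 ± 0.77 and 1.70 ± 0.52, edgeR adjusted p = 0.83 and 0.75) and in cancer-like cells (1.39 ± 0.48 and 1.60 ± 0.73, both edgeR adjusted p = 0.99). Hp is a neutrophil transcript as well, at 411, 1450, 1598 and 791 CPM in neutrophil-like cells. Lcn2, another acute-phase gene, took opposite signs by class, with -1.41 ± 0.28 in cancer-like cells (edgeR adjusted p = 0.83) and 1.97 ± 0.56 in fibroblast-like cells (edgeR adjusted p = 0.98). Neutrophil-like cells held 873, 3070, 2270 and 997 CPM of Lcn2, and the 12 neutrophil markers summed to 562 CPM in fibroblast-like cells of OE-Vector 1 and to 636 to 861 CPM in those of OE-MLKL, whose part in the fibroblast-like value was not tested. In cancer-like cells Lcn2 measured 154 CPM in OE-Vector 1 but 57.3, 67.6 and 61.1 CPM in the 3 OE-MLKL libraries, and here OE-MLKL 3 lay with the other OE-MLKL libraries. Timp1, an inhibitor of matrix proteases, was lower in 3 of 3 OE-MLKL libraries in macrophage-like (-1.15 ± 0.35, edgeR adjusted p = 0.74) and fibroblast-like cells (-1.21 ± 0.43, edgeR adjusted p = 1.0).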

How the data were processed

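The matrices the authors deposited hold UMI counts of each gene in each barcode, from droplet-based 3' sequencing aligned to mm10, with no filter and no normalisation. The matrix headers name Cell Ranger 7.1.0 and the submitters' processing notes 2.1.1, and it was not established if intronic reads were counted. Totals were 150591289 to 169978362 UMIs per library. Barcodes with at least 500 UMIs, more than 200 genes, under 10% mitochondrial and at most 5% haemoglobin UMIs were kept, 15382, 18467, 23063 and 17633 in OE-Vector 1 and OE-MLKL 1, 2 and 3. The limits of the study on genes and mitochondrial share, without its step on haemoglobin, leave more barcodes.

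Cells were classed by summed markers per 10000 UMIs and a minimum number of distinct markers (for cancer-like cells 10 and 4, macrophage-like 80 and 4, neutrophil-like 60 and 4, T cell-like 20 and 3, fibroblast-like 60 and 4, endothelial-like 40 and 3). These minimums were set after the marker distributions had been seen. Cells that passed the gates of 2 classes were left out, except in pairs where 1 class gave way to the other. Monocyte-like gave way to macrophage-like, neutrophil-like and dendritic cell-like, and NK cell-like to T cell-like. Dendritic cell-like gave way to macrophage-like, neutrophil-like, T cell-like, B cell-like and cancer-like. Cells of these pairs were kept in the class given way to. There was no other treatment of doublets. Counts were summed per library and class with at least 20 cells and tested by quasi-likelihood in edgeR 4.0.16 (R 4.3.3, TMM, filterByExpr, Benjamini-Hochberg over all genes at 0.05). Classes were compared in 1 fit with library as a block. The group test has 1 OE-Vector library, and its spread is taken to be that of the OE-MLKL libraries. The labels do not tie libraries to animals, but the study's methods describe a separate tumour for each. DESeq2 1.42.0, limma 3.58.1, other filters and gates and each left-out library were alternatives. Levels are CPM, the UMIs of a gene per 1000000 UMIs of the class sum, with exact 95% Poisson intervals for counting error only. Thinned shares are the expected share at 1000 UMIs per cell, for cells that reach that depth. The tests were tried on simulated data. Gene positions are from GENCODE vM21 (GRCm38).

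The members and lists were chosen with earlier results of these data known. All 9 members were named, with Mlkl. From the pathway lists were named genes called over all genes tested and, per class, those with the 2 largest and 2 smallest log2 fold changes, of which a part is given. Family genes whose levels by class are given outside this rule (Il11ra1, Cntfr and Clcf1) were chosen after their values were seen. Genes of like pattern were the 3 with the highest Pearson r of log2(CPM + 1). A few genes that these rules name are not reported here.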

Additional observations from a re-analysis of the deposited data

Results flagged for a closer look

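The Osm level of the OE-MLKL libraries lay on different sides of OE-Vector 1 in different classes, and the difference between the classes was not tested. All 3 OE-MLKL libraries lay above OE-Vector 1 in macrophage-like cells, with a mean 1.11 times its CPM, and all 3 lay below it in neutrophil-like cells (0.558 times) and in T cell-like cells (0.554 times). In macrophage-like cells the log2 fold change was 0.04 ± 0.28 (SE), and -0.04 without OE-MLKL 1, so no direction can be given there. In free RNA, Osm stood at 81.4 CPM in OE-Vector 1 and at 40.7, 34.4 and 76.9 CPM in OE-MLKL 1, 2 and 3.

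Lifr, the receptor chain for Lif, also took opposite directions, again untested as a difference between classes. All 3 OE-MLKL libraries lay above OE-Vector 1 in macrophage-like cells (2.19 times its CPM on average) and in neutrophil-like cells (2.50 times). The 11 macrophage markers summed to 1613, 2223, 2017 and 2641 CPM there (OE-Vector 1 first, then OE-MLKL 1 to 3), and their part in its Lifr level was not tested. All 3 lay below it in cancer-like cells (0.502 times), where OE-MLKL 3, at 14.7 CPM, was within counting error of OE-Vector 1, at 14.8 CPM. Lif, its ligand, lay below OE-Vector 1 in 2 of 3 OE-MLKL libraries in cancer-like cells.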

How the results depend on the processing

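No paired analysis was made because nothing in the labels pairs libraries across the groups, so group comparisons have no replicate block. Between the groups, no alternative other than leaving out OE-MLKL 3 called a member. Over left-out libraries the members called ranged from 0 to 3 in cancer-like and neutrophil-like cells and from 0 to 1 in T cell-like cells. Among all genes, leaving out OE-MLKL 3 gave 467, 180, 1820, 934, 3 and 135 calls in cancer-like, macrophage-like, neutrophil-like, T cell-like, fibroblast-like and endothelial-like cells, against 1, 4, 0, 1, 1 and 11 with all libraries. Omitting OE-MLKL 1 gave 118, 115, 134, 1, 72 and 40, omitting OE-MLKL 2 gave 42, 0, 0, 20, 0 and 28, and DESeq2 gave 101, 76, 90, 8, 8 and 2. With no filter on low counts there were 1, 18, 15, 21, 117 and 40. The remaining alternatives gave 0 to 4 in the first 5 classes and 0 to 29 in endothelial-like cells, where doubling the marker minimum left Saa3 too sparse to test.

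Signs turned in the following cases. With library size alone, neutrophil-like Il11, Il6ra and Socs3 gave 0.078, 0.068 and 0.076. Cancer-like Socs3 gave -0.018 with limma-voom and -0.021 with the marker minimum doubled. With cells of 2 gates kept, macrophage-like Osm gave -0.016, neutrophil-like Il6st 0.074 and fibroblast-like Il6st 0.024. Under the stricter limit on cells (1000 UMIs and 500 genes) neutrophil-like Il11 gave 0.088. With the marker minimum doubled, fibroblast-like Il6st and Lifr gave 0.025 and 0.22 and endothelial-like Il6st 0.012. Fibroblast-like Il6st gave 0.25 without the top 2% of cells by UMIs and 0.0027 without shared barcodes. Over left-out libraries, Socs3 ranged from -0.22 to 0.17 in cancer-like and from -0.56 to 0.088 in neutrophil-like cells, macrophage-like Osm from -0.043 to 0.089, neutrophil-like Il11 from -1.15 to 0.19, endothelial-like Lifr from -0.037 to 0.70, and fibroblast-like Il6 from -0.33 to 1.13, Il6st from -0.18 to 0.078 and Lifr from -0.82 to 0.088.

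Between classes, leaving out the block by library lowered the members called for neutrophil-like over macrophage-like cells from 9 to 5. The other counts of called members stayed within 1.5 times of their first value under all alternatives except left-out libraries, over which they ranged from 7 to 8, 8 to 9, 8 to 9, 6 to 8, 5 to 7, 6 to 7, 4 to 7 and 5 to 6, in the order of the report. With limma-voom, Lif in T cell-like over neutrophil-like cells gave -0.00095 and Il6 in endothelial-like over cancer-like cells 0.089. Over left-out libraries, those ranged from -0.32 to 0.26 and from -0.86 to 0.025, Il6 in macrophage-like over cancer-like cells from -0.50 to 0.083, and Lifr in neutrophil-like over cancer-like cells from -0.19 to 1.12. The mean share of cancer-like cells with an Il11 UMI in OE-MLKL was 45.2%, and 8.15% when thinned to 1000 UMIs. The neutrophil-like share of Osm UMIs, as a mean of the 3 OE-MLKL libraries, fell from 51.1% to 35.8% under the stricter limit on cells, a limit that removes shallow neutrophils. The cause of the other changes was not tested. Depth limits Il6, which rests on 4 to 31 UMIs per library in neutrophil-like and 1 to 8 in T cell-like cells.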

Other observations

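Classes in which the groups were not tested gave the following values. Monocyte-like cells, 17 to 79 per library, held 228, 511, 310 and 223 CPM of Socs3 in OE-Vector 1 and OE-MLKL 1, 2 and 3. The 12 neutrophil markers summed to 951, 4705, 3901 and 1086 CPM in these cells, highest in the same 2 libraries as Socs3, and their part in it was not tested. B cell-like cells held 11.0, 25.3, 58.6 and 56.6 CPM of Lifr, higher in each OE-MLKL library, on 7, 5, 11 and 10 UMIs. Dendritic cell-like cells held 24.5, 52.4, 46.6 and 53.0 CPM of Il6ra, on 26, 8, 12 and 88 UMIs.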
